A study of Mus musculus with 12 samples.

Results

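The genes described here encode the potassium, sodium and calcium channels, the TRP channels of the TRPC, TRPM and TRPV families, and the CLC chloride channels and transporters. They were taken by mouse gene symbol (Kcn, Scn followed by a number, Cacna1, Cacna2d, Cacnb, Cacng, Trpc, Trpm, Trpv or Clcn) among protein-coding genes of GENCODE M21, and the symbol rule used no measured value. The annotation held 166 such genes, of which 68 were among the 18278 genes of the count files. The other 98 were not analysed here. Of the 68, 30 were potassium channel subunits, 13 calcium channel subunits, 13 TRP family genes, 8 CLC genes and 4 sodium channel subunits. A pair of them needs a caution. Trpc4ap matches by symbol but encodes a protein that associates with TRPC4 and is not itself a channel. All exonic bases of Trpc2 are shared with exons of Xntrpc and Xndc1, which are also counted, so its values are uncertain.

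Ion channels let selected ions cross a membrane along their electrochemical gradient. Potassium channels pull the membrane towards negative voltages, sodium channels carry the fast upstroke of the action potential in nerve and muscle, and voltage-gated calcium channels turn a change of voltage into a calcium signal. Each of these has a pore-forming subunit and accessory subunits that set its trafficking and gating. TRP channels are cation channels opened by lipids, temperature, calcium or mechanical stress, and CLC proteins move chloride across the plasma membrane or, as chloride-proton exchangers, across endosomes and lysosomes. Two-pore potassium channels, TRPV4 and CLC proteins are well known from epithelia, whereas CACNA1C and KCNJ2 are best known from the heart.

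The 12 tumoursphere libraries fall into 4 groups of 3. LM1 and LM9 are mouse mammary cancer lines grown from lung metastases in NOD/SCID mice that carried a PIK3CA-mutant tumour line after piggyBac transposon mutagenesis, and they are called parental here. The LM1KO and LM9KO libraries are labelled as the LM1 and LM9 lines after CRISPR-Cas9 targeting of Nfib, and both are called knockout-labelled here. By the methods, each knockout was a pool of single-cell clones, fewer of them for LM9KO than for LM1KO. By the labels and methods, all groups derive from the PIK3CA-mutant line, and the mutation and the transposon insertions were not checked here. Spheres were harvested on day 6 of culture on ultra-low attachment plates, after plating of 10000 cells for each mL of serum-free DMEM:F12 that held B27 and, at 20 ng/mL each, EGF and basic FGF. Nothing in the labels says that the 3 libraries of a group came from separate cultures, so p-values measure the spread between these libraries, which may be technical. The comparison asks which channels differ between a line and its Nfib-targeted counterpart.

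Several facts of the whole series bear on every result below. Library totals ran from 29249075 to 37162594 counts. Nfib mRNA was not lower in the knockout-labelled libraries, at 218 ± 22.6 CPM (counts scaled to library size with TMM factors, the unit of level used below; mean ± SD, n = 3) in LM1 and 235 ± 5.67 in LM1KO, and at 154 ± 48.8 in LM9 and 240.0 ± 11.2 in LM9KO. Since an edit can remove a protein without lowering its mRNA, this level does not check the labels. Across all genes, Pearson correlations of log CPM were 0.996 for all 15 pairs of knockout-labelled libraries, across both lines, and 0.727 to 0.742 for the 36 pairs that set a parental against a knockout-labelled library. The first LM9 library correlated with LM1 at 0.995 to 0.996 and with the other LM9 libraries at 0.968 to 0.970. Whether the knockout-labelled libraries are the Nfib-targeted pools of these lines was not settled by the labels or these values. Markers of cell types moved with the label. The summed level of 6 luminal epithelial markers was 746 to 1331 CPM in the parental and 26.7 to 29.0 CPM in the knockout-labelled libraries, where Cdh1 was at no more than 1 count and Krt8 at no more than 7 counts, while the oestrogen receptor gene Esr1 rose and made up most of the remainder. The 3 endothelial markers summed to 0.202 to 1.33 against 350.5 to 359 CPM, with Kdr and Cdh5 at no more than 2 counts in parental libraries and Pecam1 low in both. The 6 fibroblast markers summed to 174 to 309 against 1193 to 1285 CPM, mostly from Col1a1, at 6.10 CPM in LM1 and 958 CPM in LM1KO; 5 of the 6 rose in both lines, while Dcn fell in LM1, from 90.7 to 11.5 CPM, and did not pass in LM9. The remaining lists summed to 0.354 to 19.1 against 6.32 to 7.17 CPM for 2 basal epithelial genes, 0 to 0.0337 against 11.4 to 13.2 for 1 blood gene, 0 to 0.161 against 15.5 to 17.8 for 1 neuronal gene, 43.2 to 51.7 against 0.832 to 1.34 for 4 glial genes and 11.9 to 15.4 against 5.06 to 6.18 for 3 muscle genes. The lists named 7 luminal, 7 fibroblast, 6 endothelial, 6 basal, 4 blood, 5 neuronal, 4 glial and 5 muscle genes. Listed genes that the files lack are not in these sums, so the blood sum is Csf1r alone and the neuronal sum Tubb3 alone. The part of these markers in the channel results was not tested. In bulk RNA, fewer cells of a type and less RNA per cell cannot be told apart.

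Every class held channel genes that differed between parental and knockout-labelled libraries in both lines. In limma-voom with Benjamini-Hochberg adjustment over all 18176 genes tested, 66 of 68 channel genes passed an adjusted p of 0.05 in LM1KO against LM1, with 40 higher and 26 lower in LM1KO (97.1%). The background is high, since 81.2% of all genes passed in the same contrast, 43.1% as higher and 38.1% as lower. In LM9KO against LM9, 64 of 68 passed (94.1%), 40 higher and 24 lower in LM9KO, where 82.3% of all genes passed, 44.3% as higher and 38% as lower. The median log2 fold change over the channel genes was 1.76 in LM1 and 1.89 in LM9, against 0.08 and 0.13 over all genes. The median absolute log2 fold change was 3.92 and 3.93, against 1.16 and 1.24 over all genes. All 68 passed the filter on low counts, but the files list only genes whose third-highest library held at least 8 counts, so a gene near 0 in one label was listed because of the other label and had to differ. Among the 44 channel genes with a mean of at least 1 CPM over all libraries, 43 passed in LM1, 23 higher and 20 lower, where 83.5% of such genes did (43.4% higher and 40% lower). In LM9 40 of the 44 passed, 23 higher and 17 lower, where 84.1% did (44.5% higher and 39.6% lower). The median log2 fold change over the 44 was 0.49 in LM1 and 0.67 in LM9, against 0.05 and 0.10 over all such genes. Their median absolute log2 fold change was 2.92 and 3.45, against 1.05 and 1.12.

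The direction was shared by the lines for every channel gene that passed in both. There were 40 higher in both (58.8%), 23 lower in both (33.8%) and 0 with opposite signs, where 39.6%, 33.5% and 0.0385% of all genes tested were. Trpc1 and Clcn3 were among 3 genes that passed in LM1 alone, and Clcn1 passed in LM9 alone and Cacnb1 in neither. The difference between the lines' changes was tested as an interaction, which 0 of 68 channel genes passed and 0% of all genes passed, with 11 channel genes (16.2%) at an unadjusted p under 0.05, where 24.7% of all genes were. LM1KO against LM9KO gave 0 of 68 calls (0% of all genes), with 0 at an unadjusted p under 0.05 (0.979% of all genes), and edgeR and DESeq2 also gave 0 for both comparisons. All 6 knockout-labelled libraries lay above all 6 parental libraries for 40 channel genes, or 58.8%, where 40.3% of all genes did. All 6 lay below for 21, or 30.9%, where 34.2% of all genes did.

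**Figure D1:**
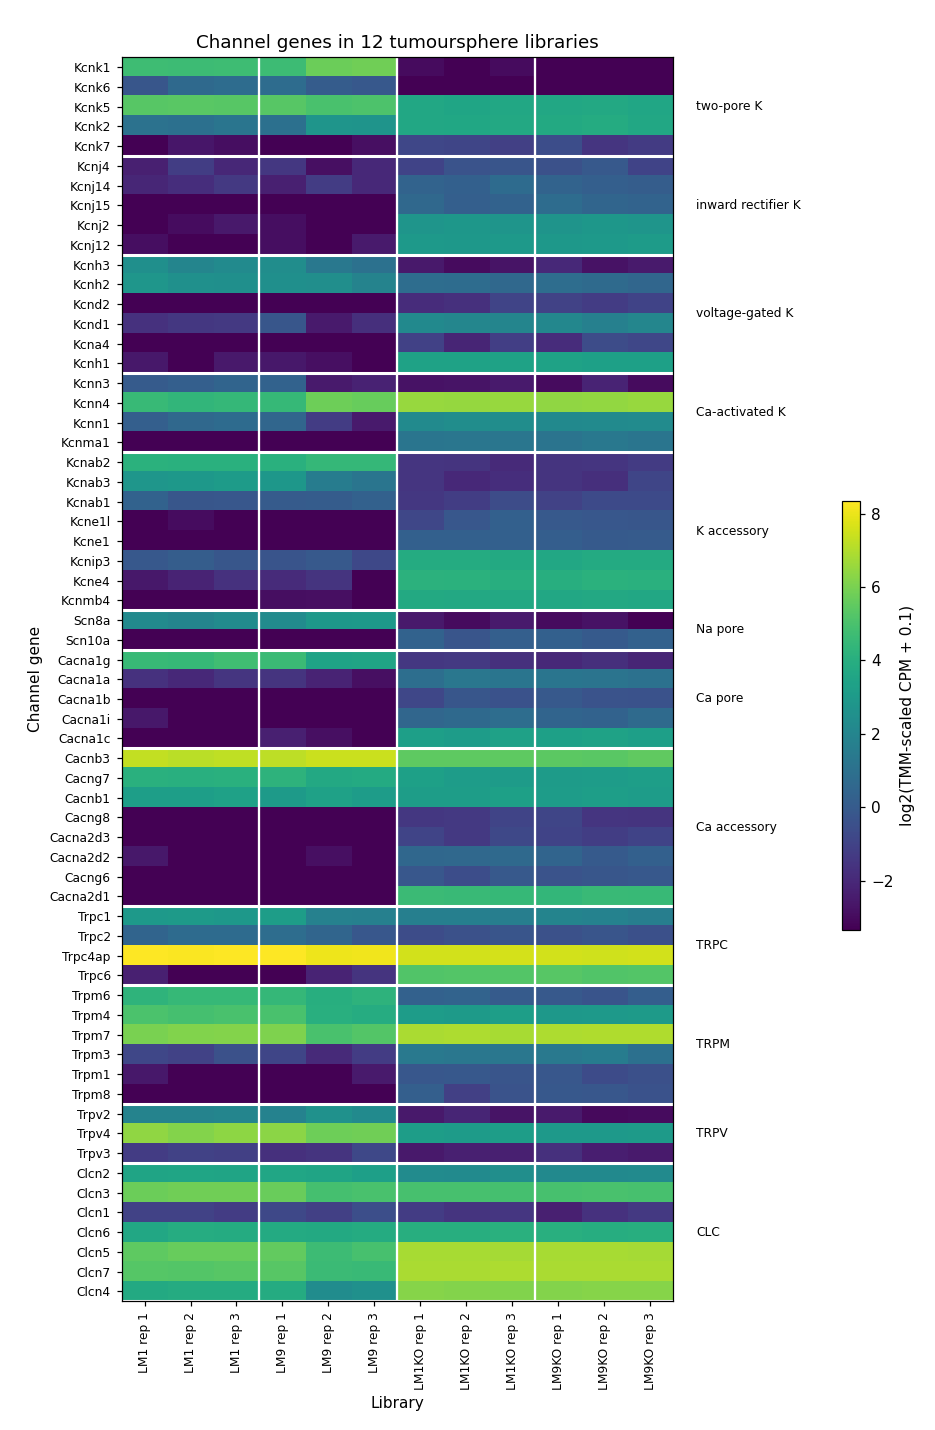
Heat map of 63 of the 68 channel genes (rows, grouped by class) in the 12 libraries (columns), coloured by log2(TMM-scaled CPM + 0.1). The 6 knockout-labelled columns look alike, LM9 replicate 1 looks like LM1, and in most classes dark rows on one side turn bright on the other.

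Promoter sequences are shown for 4 genes that the results turn on, since NFIB is a DNA-binding protein. They are Kcnk1, a two-pore potassium channel gene of the parental libraries; Kcnma1 and Kcnmb4, the pore and an accessory subunit of the BK channel, both near 0 in parental libraries; and Kcnj2, an inward rectifier of the knockout-labelled libraries. Each window runs from 250 bases before to 50 bases after the start of the RefSeq gene on the GRCm38.p6 build. The sequences are written 5′ to 3′ on the strand of the gene. Capitals mark TTGGC or its reverse complement GCCAA, the half-site of the NFI family of factors.
Kcnk1, chr8:125994852-125995151, plus strand: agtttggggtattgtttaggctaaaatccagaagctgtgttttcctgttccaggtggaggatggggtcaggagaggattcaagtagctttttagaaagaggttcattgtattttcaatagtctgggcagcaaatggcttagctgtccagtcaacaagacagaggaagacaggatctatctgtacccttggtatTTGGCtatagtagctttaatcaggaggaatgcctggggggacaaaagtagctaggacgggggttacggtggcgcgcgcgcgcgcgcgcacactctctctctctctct
Kcnma1, chr14:24004156-24004455, minus strand: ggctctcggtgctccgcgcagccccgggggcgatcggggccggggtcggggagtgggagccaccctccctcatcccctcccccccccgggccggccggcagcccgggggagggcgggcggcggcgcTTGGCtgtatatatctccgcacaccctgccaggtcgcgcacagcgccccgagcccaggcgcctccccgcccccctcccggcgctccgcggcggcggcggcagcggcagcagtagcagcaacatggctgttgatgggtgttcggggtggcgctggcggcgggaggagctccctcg
Kcnmb4, chr10:116473474-116473773, minus strand: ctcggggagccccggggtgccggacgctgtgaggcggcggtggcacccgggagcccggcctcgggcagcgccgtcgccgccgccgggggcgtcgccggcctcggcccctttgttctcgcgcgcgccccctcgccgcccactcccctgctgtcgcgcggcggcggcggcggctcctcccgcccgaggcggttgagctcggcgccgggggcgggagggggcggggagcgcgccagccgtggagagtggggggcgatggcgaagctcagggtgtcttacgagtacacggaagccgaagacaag
Kcnj2, chr11:111065914-111066213, plus strand: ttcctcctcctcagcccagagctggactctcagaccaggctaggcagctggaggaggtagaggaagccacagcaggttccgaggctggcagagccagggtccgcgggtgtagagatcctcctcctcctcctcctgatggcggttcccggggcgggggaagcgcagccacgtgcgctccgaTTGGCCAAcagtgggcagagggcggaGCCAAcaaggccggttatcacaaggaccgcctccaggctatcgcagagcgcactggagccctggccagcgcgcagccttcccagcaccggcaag

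The Kcnk1 and Kcnma1 windows each held 1 half-site, the Kcnmb4 window held 0, and the Kcnj2 window held 3, a pair of which overlap. The windows also differ in CpG dinucleotides, with 10 in Kcnk1, 36 in Kcnma1, 48 in Kcnmb4 and 18 in Kcnj2. RefSeq promoters were matched for 54 of the 68 channel genes, in 77 windows. The half-site, searched on both strands, was in 29 of these windows (37.7%), and in 46.7% of all 32851 promoter windows of the same length. The full palindrome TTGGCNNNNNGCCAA was in 0 of the 77 and in 0.0365% of all windows. Among the genes on in knockout-labelled libraries only, defined below, 9 of 21 windows held the half-site (42.9%). Channel promoters held a median of 12 CpG dinucleotides, and all promoters 7. A match describes letters in the window and is not evidence of binding. Kcnh3, Trpm4, Cacna1g, Kcnd1, Kcnab3, Kcne1, Cacna1a, Kcnj14 and Kcnk6 were among the genes with no entry.

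Two-pore potassium channel genes, which encode carriers of the background potassium current that sets the resting voltage, changed in both directions. Of 5 genes, Kcnk1, Kcnk5 and Kcnk6 fell and Kcnk2 and Kcnk7 rose in both lines. Their summed level per kilobase of exon, which was not tested, was 24.4 ± 0.0263 CPM per kb in LM1 and 6.45 ± 0.279 in LM1KO (SD, n = 3). In LM9 the sum was 31.8 ± 6.86 and in LM9KO 6.69 ± 0.346. Kcnk1 (chr8:125995170-126030685 on mm10) encodes TWIK-1, a weakly conducting two-pore channel. Its counts were 751, 838 and 731 in the LM1 libraries and 762, 1333 and 1426 in the LM9 libraries. They were 1, 0 and 1 in LM1KO and 0, 0 and 0 in LM9KO. The groups did not overlap, and 4 of the 6 knockout-labelled libraries held no read of a gene that had over 700 in every parental library. The level was 1518-fold (95% counting interval 419.9 to 12546) higher in LM1 than in LM1KO and at least 593-fold higher in LM9 than in LM9KO. The log2 fold changes were -9.93 (SE 0.98, adjusted p = 1.9e-06) and -11.70 (SE 0.98, adjusted p = 4.4e-07).

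Kcnk6, the gene of TWIK-2, was the one channel gene with no count in any knockout-labelled library. It had 22, 49 and 45 counts in LM1 and 49, 24 and 21 in LM9, which put it at least 16.8-fold and at least 15.1-fold higher in the parental libraries against a floor of 3 counts per library. Kcnk5, which encodes the acid-sensitive channel TASK-2, fell from 40.4 ± 0.775 to 12.2 ± 0.708 CPM in LM1 and from 35.1 ± 4.27 to 12.6 ± 0.488 CPM in LM9. It was the highest of the class per kilobase in both knockout-labelled groups, at 3.59 ± 0.208 and 3.71 ± 0.143 CPM per kb. Kcnk2 encodes TREK-1, a mechanosensitive and lipid-sensitive channel. It rose from 2.04 ± 0.187 to 12.7 ± 0.529 CPM in LM1 and from 4.99 ± 2.71 to 13.6 ± 0.959 CPM in LM9. The log2 fold changes of Kcnk2 were 2.63 (SE 0.38, adjusted p = 5.4e-05) and 1.70 (SE 0.32, adjusted p = 4.7e-04), and 1.05 (SE 0.10, adjusted p = 2.7e-08) in LM9 without replicate 1. Its share of the class's summed level per kilobase was 1.70% in LM1 and 39.9% in LM1KO. Kcnk7 stayed low, with at most 2 counts in parental and 10 to 22 in knockout-labelled libraries.

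Inward rectifiers pass potassium best near the resting voltage. All 5 genes were higher in both lines, and the summed level was 0.177 ± 0.0584 CPM per kb in LM1, 4.98 ± 0.179 in LM1KO, 0.159 ± 0.0219 in LM9 and 5.05 ± 0.144 in LM9KO. Kcnj12, which encodes the strong rectifier Kir2.2, was highest in both knockout-labelled groups. Its counts were 1, 0 and 0 in LM1, 1, 0 and 2 in LM9, 302, 279 and 298 in LM1KO and 287, 326 and 322 in LM9KO. The 6 knockout-labelled values lay close together and far above the parental values. The ratios were 672-fold (95% counting interval 120.2 to 26553) and 211-fold (95% counting interval 71.9 to 1023), with log2 fold changes of 8.28 (SE 0.45, adjusted p = 1.0e-08) and 7.41 (SE 0.45, adjusted p = 2.6e-08). Kcnj2, the gene of its close relative Kir2.1, had 0, 1 and 2 counts in LM1 and 1, 0 and 0 in LM9 and 250 to 298 in knockout-labelled libraries, 203-fold (95% counting interval 69.2 to 986) and 546-fold (95% counting interval 97.8 to 21600.0) higher. Kcnj15 (Kir4.2) had no parental count and 40 to 63 counts in knockout-labelled libraries. Kcnj14 and Kcnj4, further inward rectifiers, were low throughout. Kcnj14 rose 6.37-fold (95% counting interval 3.89 to 11) and 5.77-fold (95% counting interval 3.37 to 10.6). Kcnj4 had 1 to 11 counts in parental and 16 to 35 in knockout-labelled libraries, so its groups did not overlap by a narrow margin, and its log2 fold changes were 1.64 (SE 0.53, adjusted p = 0.014) and 2.09 (SE 0.56, adjusted p = 0.0049). Without LM1 replicate 1 its change in LM1 was 1.32 and did not pass (limma-voom adjusted p = 0.064), and without LM9 replicate 2 its change in LM9 was 1.47.

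Voltage-gated potassium channels open on depolarisation and end the action potential in excitable cells. Of the 8 pore genes, 5 rose in both lines, Kcna4, Kcnd1, Kcnd2 and Kcnh1 among them, and Kcnh2 and Kcnh3 fell in both. Kcnh1 encodes EAG1 (Kv10.1), a channel studied in cancer because of its expression in tumours outside the brain. It had 2, 0 and 2 counts in LM1 and 2, 1 and 0 in LM9. In LM1KO it had 422, 406 and 395 counts and in LM9KO 406, 403 and 376. The change was therefore from at most 2 reads to at least 376 in each library, with log2 fold changes of 7.73 (SE 0.51, adjusted p = 5.7e-08) and 7.76 (SE 0.51, adjusted p = 5.6e-08), which were 6.90 without LM1 replicate 2 and 7.13 without LM9 replicate 3. The related genes Kcnh2 (HERG1) and Kcnh3 (an ELK channel) moved the other way. Kcnh2 fell from 6.06 ± 0.709 to 1.60 ± 0.125 CPM in LM1 and from 4.87 ± 1.06 to 1.52 ± 0.167 in LM9. Kcnh3 had 156, 127 and 131 counts in LM1 and 154, 61 and 49 in LM9, against 1 to 6 in knockout-labelled libraries, with log2 fold changes of -6.25 (SE 0.63, adjusted p = 2.2e-06) and -4.94 (SE 0.59, adjusted p = 9.6e-06).

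The A-type channel genes Kcna4, Kcnd1 and Kcnd2, whose currents inactivate quickly, were at or near 0 in parental libraries. Kcnd1 rose most in level, from 0.259 ± 0.0408 to 4.21 ± 0.373 CPM in LM1 and from 0.351 ± 0.372 to 3.84 ± 0.445 in LM9, where LM9 replicate 1 held 23 of the 30 LM9 counts. The log2 fold change of Kcnd1 in LM9 was 3.84 (SE 0.46, adjusted p = 1.0e-05), and 4.69 (SE 0.45, adjusted p = 3.3e-08) without that library. Kcna4 and Kcnd2 had no parental count and reached 5 to 23 and 7 to 16 counts in knockout-labelled libraries.

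Calcium-activated potassium channels couple calcium to the membrane voltage. Kcnn4 encodes the intermediate-conductance channel KCa3.1, which is voltage-independent and found in epithelial and blood cells. It was the leading gene of its class in every group, at 91.4% of the class's summed level per kilobase in LM1 and 93.6% in LM1KO. Its CPM values were 21.7 ± 1.43 in LM1 and 92 ± 2.30 in LM1KO, a log2 fold change of 2.09 (SE 0.25, adjusted p = 1.1e-05). In LM9 the counts were 670, 1362 and 1251, so replicates 2 and 3 lay far above replicate 1, which sat with LM1 at 655, 665 and 596 counts. LM9KO held 3323, 3579 and 3573, a log2 fold change of 1.19 (SE 0.24, adjusted p = 6.4e-04). Kcnma1, the pore of the large-conductance BK channel, had no read in any parental library. Its counts were 87, 87 and 87 in LM1KO and 84, 100 and 86 in LM9KO, at least 22-fold and at least 20.1-fold above the floor of 3 counts per library. The small-conductance genes parted. Kcnn1 rose, with log2 fold changes of 1.89 (SE 0.39, adjusted p = 9.0e-04) and 3.68 (SE 0.55, adjusted p = 6.2e-05), and 4.71 (SE 0.44, adjusted p = 2.2e-08) in LM9 without replicate 1, which held 40 of the 50 LM9 counts. Kcnn3 had 26, 34 and 35 counts in LM1, 35, 2 and 3 in LM9 and 1 to 5 in knockout-labelled libraries. It fell in LM1, at -3.90 (SE 0.77, adjusted p = 5.9e-04). In LM9 the value was -2.17 (SE 0.90, adjusted p = 0.042) with all libraries, and without replicate 1 it did not pass, at -0.99 (SE 0.62, adjusted p = 0.14).

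Accessory subunits of potassium channels set where the pores go and how they gate. Of 8 genes, 5 rose and 3 fell in both lines. The 3 that fell, Kcnab1, Kcnab2 and Kcnab3, encode the cytosolic beta subunits of Kv1 channels, which are related to aldo-keto reductases. Kcnab2 had 497, 557 and 470 counts in LM1 and 506, 541 and 550 in LM9 but 10, 9 and 6 in LM1KO and 9, 10 and 12 in LM9KO, with log2 fold changes of -6.26 (SE 0.26, adjusted p = 1.0e-09) and -6.19 (SE 0.24, adjusted p = 7.5e-10). Kcnab3 fell from 7.58 ± 0.768 to 0.198 ± 0.0488 CPM in LM1 and from 4.07 ± 2.65 to 0.290 ± 0.133 in LM9, and Kcnab1 fell 2.33-fold and 2.11-fold. Those that rose were the single-span subunits Kcne1, Kcne1l and Kcne4, the calcium sensor Kcnip3 and the BK subunit Kcnmb4.

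Kcnmb4 rose in the same libraries as its pore partner Kcnma1. It had 0, 0 and 0 counts in LM1, 1, 1 and 0 in LM9, 545, 501 and 489 in LM1KO and 494, 531 and 495 in LM9KO, with log2 fold changes of 9.61 (SE 0.31, adjusted p = 1.5e-10) and 8.36 (SE 0.31, adjusted p = 4.5e-10). Antisense transcripts overlap 31.5% of its exonic bases, and whether counting used strand was not stated, so the share of reads from them is not known. Smaller antisense overlaps were annotated for other genes, such as Kcnk2 (12.2%), Clcn4 (11.5%) and Kcnk1 (8.01%). Per kilobase, Kcnmb4 was at 3.98 ± 0.127 CPM per kb in LM1KO and Kcnma1 at 0.133 ± 0.00334, with 3.87 ± 0.0164 and 0.134 ± 0.00787 in LM9KO. Kcne4, an inhibitory partner of Kv1 and KCNQ channels, was the highest accessory subunit of the knockout-labelled groups per kilobase, at 6.44 ± 0.381 and 6.28 ± 0.260 CPM per kb. It had 0 to 6 counts in parental and 607 to 717 in knockout-labelled libraries. Kcnip3, also known as DREAM, rose 16.5-fold (95% counting interval 13.1 to 21) and 20.0-fold (95% counting interval 15.3 to 26.8). Kcne1, the partner of KCNQ1 in the slow cardiac potassium current, had no parental count and 36 to 44 counts in knockout-labelled libraries. Kcne1l had at most 1 parental count and 18 to 41 in the knockout-labelled libraries.

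The sodium channel pore genes changed in both directions. Scn8a encodes Nav1.6, a channel of neurons that is also found in some tumour cells. It had 131, 128 and 133 counts in LM1, 143, 186 and 193 in LM9, 3, 1 and 3 in LM1KO and 1, 2 and 0 in LM9KO. All 6 parental libraries lay above 100 counts and all 6 knockout-labelled libraries at or below 3. The log2 fold changes were -6.02 (SE 0.51, adjusted p = 5.0e-07) and -7.69 (SE 0.55, adjusted p = 1.2e-07), the latter -7.04 without LM9KO replicate 3. Scn10a (Nav1.8), known from pain-sensing neurons, had no parental count and 29 to 47 counts in knockout-labelled libraries. The rise was at least 9.77-fold in LM1 and at least 9.29-fold in LM9, against a floor of 3 counts per library.

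**Figure D2:**
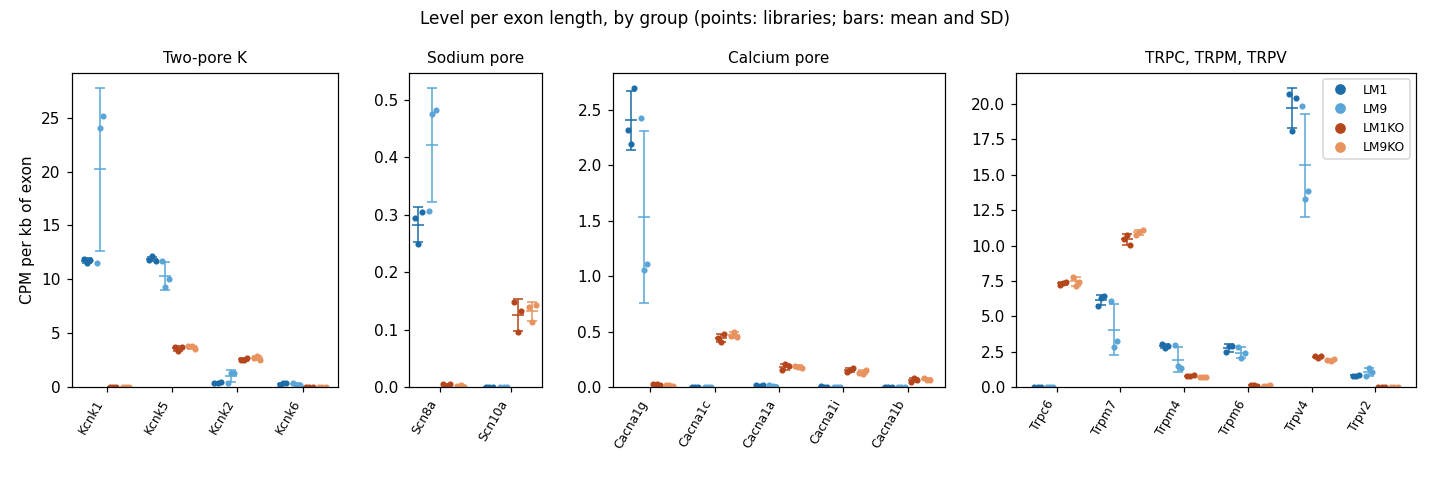
Level per kilobase of exon (CPM per kb, linear axis from 0 in each panel) of two-pore potassium, sodium pore, calcium pore and TRP genes in LM1, LM9, LM1KO and LM9KO, with a point per library and the mean and SD of 3 libraries. Kcnk1, Cacna1g and Trpv4 are high in the parental groups and low in the knockout-labelled groups, Cacna1c and Trpc6 show the reverse, and in LM9 the 3 points often lie apart.

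The 5 calcium channel pore genes comprised 1 that fell and 4 that rose in both lines. Cacna1g encodes Cav3.1, a T-type channel that opens near the resting voltage, and it made up 99.2% of the summed calcium pore level per kilobase in LM1 and 99.1% in LM9. It (chr11:94408391-94474198 on mm10) had 663, 725 and 757 counts in LM1, 729, 265 and 287 in LM9, 11, 11 and 8 in LM1KO and 6, 8 and 5 in LM9KO. The fall was 93.6-fold (95% counting interval 65.4 to 139) in LM1 and 99.7-fold (95% counting interval 63.6 to 166) in LM9, with log2 fold changes of -6.49 (SE 0.57, adjusted p = 7.0e-07) and -6.42 (SE 0.64, adjusted p = 2.0e-06). Cacna1c, the L-type channel Cav1.2 of heart and smooth muscle, took the lead in the knockout-labelled groups with 51.1% and 53.4% of the pore level. Its counts were 0, 0 and 0 in LM1, 3, 1 and 0 in LM9, 374, 331 and 388 in LM1KO and 375, 434 and 369 in LM9KO. The log2 fold changes were 9.12 (SE 0.42, adjusted p = 2.8e-09) and 7.58 (SE 0.42, adjusted p = 1.3e-08), the latter 8.18 without LM9 replicate 1 and 6.87 without LM9 replicate 3. Cacna1a (P/Q-type), Cacna1b (N-type) and Cacna1i (T-type, Cav3.3) also rose. Cacna1a had 1 to 7 and 69 to 90 counts, and Cacna1i at most 2 and 49 to 64. Cacna1b had no parental count and 18 to 33 in knockout-labelled libraries. The summed pore level was 2.42 ± 0.267 CPM per kb in LM1 and 0.871 ± 0.0637 in LM1KO, and 1.54 ± 0.785 in LM9 and 0.880 ± 0.0155 in LM9KO.

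The alpha2delta subunits carry calcium channels to the surface, and some of them bind gabapentin. All 3 in the files rose in both lines. Cacna2d1 (chr5:15934691-16374511 on mm10) had 0 counts in all 6 parental libraries, 969, 926 and 842 in LM1KO and 821, 991 and 908 in LM9KO. That was at least 231-fold and at least 203-fold higher against a floor of 3 counts per library, with log2 fold changes of 10.44 (SE 0.27, adjusted p = 3.5e-11) and 10.25 (SE 0.27, adjusted p = 3.8e-11). Cacna2d2 had at most 2 parental counts and 37 to 56 in knockout-labelled libraries, and Cacna2d3 had 0 and 11 to 18. Of the cytosolic beta subunits, Cacnb3, the calcium channel subunit with the highest level per kilobase in all 4 groups, fell from 149 ± 7.20 to 44.1 ± 0.614 CPM in LM1 and from 163 ± 13.2 to 43 ± 1.92 in LM9, with log2 fold changes of -1.76 (SE 0.07, adjusted p = 9.1e-10) and -1.92 (SE 0.07, adjusted p = 4.7e-10). Cacnb1 was at 9.55 ± 0.535 CPM in LM1 and 9.12 ± 0.499 in LM1KO, and its log2 fold changes of -0.07 (SE 0.09, adjusted p = 0.53) and 0.00 (SE 0.10, adjusted p = 0.99) did not pass. Among the gamma genes, some of which regulate AMPA receptors in place of calcium channels, Cacng7 fell with log2 fold changes of -0.90 (SE 0.13, adjusted p = 4.5e-05) and -0.80 (SE 0.13, adjusted p = 1.4e-04). Cacng6 and Cacng8 had no parental count and reached 22 to 32 and 9 to 17 counts.

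Among TRP genes, Trpc6 had the largest log2 fold change and Trpv4 the largest loss of level per kilobase, in both lines. TRPC6 is a calcium-permeable channel opened by diacylglycerol. Trpc6 (chr9:8544142-8680741 on mm10) had 3, 0 and 0 counts in LM1, 0, 3 and 6 in LM9, 1452, 1422 and 1430 in LM1KO and 1525, 1489 and 1452 in LM9KO. Its log2 fold changes were 10.16 (SE 0.73, adjusted p = 1.2e-07) and 8.85 (SE 0.69, adjusted p = 2.3e-07). With so few parental reads 1 library moved them, to 11.13 without LM1 replicate 1 and to 7.64 and 9.65 without LM9 replicates 1 and 3 in turn. Per kilobase it reached 7.34 ± 0.121 and 7.47 ± 0.328 CPM per kb, against 0.395 ± 0.00664 and 0.430 ± 0.0376 for Trpc1, a subunit that assembles with other TRPC proteins. Trpc1 had 223, 267 and 207 counts in LM1 and 263, 84 and 84 in LM9, and 118 to 145 in knockout-labelled libraries. It fell in LM1, at -1.31 (SE 0.28, adjusted p = 0.0011). In LM9 it was at -0.46 (SE 0.30, adjusted p = 0.17), and at 0.04 (SE 0.13, adjusted p = 0.76) without replicate 1. Trpc4ap fell modestly, with log2 fold changes of -0.75 (SE 0.07, adjusted p = 8.2e-07) and -0.61 (SE 0.07, adjusted p = 4.9e-06). Trpc2 fell 2.29-fold in LM1 and 1.90-fold in LM9, and without LM9 replicate 1 its LM9 value of -0.57 (SE 0.27, adjusted p = 0.056) did not pass.

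All 3 TRPV genes fell in both lines. TRPV4 senses osmotic and mechanical stress in epithelia. Trpv4 had 2379, 2403 and 2300 counts in LM1, 2396, 1347 and 1433 in LM9, 351, 321 and 340 in LM1KO and 305, 310 and 317 in LM9KO, with log2 fold changes of -3.20 (SE 0.15, adjusted p = 3.7e-09) and -3.0 (SE 0.16, adjusted p = 8.4e-09). It still led its class in the knockout-labelled groups, at 2.14 ± 0.0760 and 1.94 ± 0.0856 CPM per kb. Trpv2 had 103 to 148 counts in parental and 1 to 5 in knockout-labelled libraries, 43.2-fold (95% counting interval 23.2 to 90.9) and 109-fold (95% counting interval 46.5 to 339) lower. Trpv3, the warmth-sensing channel of keratinocytes, was near the floor in both labels, with 6 to 13 and 3 to 8 counts that overlapped, and log2 fold changes of -1.81 (SE 0.39, adjusted p = 0.0012) and -1.22 (SE 0.40, adjusted p = 0.014).

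The TRPM genes comprised 4 that rose and 2 that fell in both lines. TRPM6 and TRPM7 are related channels that are fused to a kinase and carry magnesium, TRPM6 mainly in kidney and gut epithelium and TRPM7 in most cells. Trpm6 fell from 21.4 ± 2.04 to 1.10 ± 0.155 CPM in LM1 and from 18.9 ± 3.06 to 0.866 ± 0.142 in LM9, with log2 fold changes of -4.28 (SE 0.21, adjusted p = 3.8e-09) and -4.44 (SE 0.22, adjusted p = 5.1e-09). Trpm7 rose from 69.6 ± 4.16 to 118 ± 4.18 CPM and from 46.1 ± 20.1 to 124 ± 2.17, with log2 fold changes of 0.76 (SE 0.19, adjusted p = 0.0033) and 1.5 (SE 0.20, adjusted p = 2.8e-05). The summed TRPM level per kilobase was 11.9 ± 0.541 CPM per kb in LM1 and 11.7 ± 0.334 in LM1KO, which differ by less than an SD, while Trpm7 made up 51.9% and 89.4% of it. In LM9 the sum was 8.48 ± 3.03 and in LM9KO 12.1 ± 0.193. Trpm4, a calcium-activated channel for monovalent cations, fell with log2 fold changes of -1.86 (SE 0.23, adjusted p = 1.5e-05) and -1.36 (SE 0.25, adjusted p = 3.1e-04). Trpm3, known as a steroid-sensitive and heat-sensitive channel, rose 4.91-fold (95% counting interval 3.57 to 6.91) and 7.84-fold (95% counting interval 5.21 to 12.3). Trpm1 and the cold sensor Trpm8 were at most 2 and 0 counts in parental libraries and 22 to 32 and 14 to 42 in knockout-labelled libraries.

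Of 8 CLC genes, 4 rose in both lines, and all 4 encode intracellular exchangers. Clcn7, the lysosomal exchanger, led the class per kilobase in all 4 groups. Its counts were 1082, 1217 and 1109 in LM1, 1184, 607 and 617 in LM9, 4665, 4530 and 4634 in LM1KO and 4506, 4750 and 4550 in LM9KO, with log2 fold changes of 1.63 (SE 0.14, adjusted p = 4.2e-07) and 2.01 (SE 0.14, adjusted p = 9.6e-08). The endosomal exchangers Clcn4 and Clcn5 rose too. Clcn4 went from 14.3 ± 0.489 to 73.5 ± 2.33 CPM in LM1 and from 8.38 ± 5.11 to 73.6 ± 1.33 in LM9, and Clcn5 from 47.9 ± 3.39 to 112 ± 2.19 and from 34.3 ± 11.2 to 114 ± 2.09. Clcn6, a late endosomal exchanger, rose little, with log2 fold changes of 0.21 (SE 0.07, adjusted p = 0.018) and 0.18 (SE 0.07, adjusted p = 0.041). Clcn3 is the exception among the exchangers. It had 1496, 1815 and 1571 counts in LM1, 1536, 755 and 803 in LM9 and 1119 to 1322 in knockout-labelled libraries, and it fell in LM1 with -0.85 (SE 0.15, adjusted p = 3.0e-04). In LM9 its value was -0.25 (SE 0.16, adjusted p = 0.16), and without replicate 1 it was 0.01 (SE 0.05, adjusted p = 0.9). Clcn2, a widely expressed plasma membrane channel, fell with log2 fold changes of -1.18 (SE 0.10, adjusted p = 5.6e-07) and -1.23 (SE 0.10, adjusted p = 5.2e-07). The skeletal muscle channel Clcn1 had 9 to 15 counts in parental and 4 to 13 in knockout-labelled libraries. Clcn1 passed in LM9 alone, with log2 fold changes of -0.44 (SE 0.33, adjusted p = 0.24) and -1.27 (SE 0.34, adjusted p = 0.0045). The class sum was 20.8 ± 0.699 CPM per kb in LM1, 46.4 ± 0.189 in LM1KO, 16.1 ± 4.22 in LM9 and 45.9 ± 0.0786 in LM9KO.

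The channel genes were then listed by whether they were on in one label only. On meant at least 10 counts in every library of a label and off at most 3 counts in every library of the other. By this rule 19 of 68 genes (27.9%) were on in the knockout-labelled libraries only, where 5.51% of all genes in the files were. They were the calcium channel genes Cacna1b, Cacna1c, Cacna1i, Cacna2d1, Cacna2d2, Cacna2d3 and Cacng6; the potassium channel genes Kcnh1, Kcnj2, Kcnj12, Kcnj15, Kcnk7, Kcnma1, Kcnmb4, Kcne1 and Kcne1l; the sodium channel gene Scn10a; and Trpm1 and Trpm8. The parental libraries alone had 3 (4.41%), Kcnk1, Kcnk6 and Scn8a, where 1.49% of all genes met the rule. A further 26 were on in all 12 libraries. No CLC, TRPC or TRPV gene was on in one label only. These are descriptions with no test, since they use the same libraries as the contrasts above. A gene off in one label was in the files only because of the other label. The shares of all genes given here and in the next paragraph were not matched to the level of the channel genes.

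The levels of the genes on in the knockout-labelled libraries only covered a wide range. The lowest knockout-labelled library held at least 250 counts for Cacna2d1, Kcnmb4, Kcnh1, Cacna1c, Kcnj12 and Kcnj2, 84 for Kcnma1, and 10 to 49 for the other 12 genes. Just inside the rule were Cacna1c, with a highest parental library of 3 counts, Kcnk7, with a lowest knockout-labelled library of 10, and Scn8a, with a highest knockout-labelled library of 3. Just outside were Cacng8, with 9 counts in its lowest knockout-labelled library, Trpv2, with 5 counts in its highest knockout-labelled library, and Trpc6, whose highest parental library had 6 counts against at least 1422 in knockout-labelled libraries. With 30 counts for on, 11 genes remained on in the knockout-labelled libraries only, and with 0 counts for off, 9. There were 12 channel genes (17.6%) with no read in any parental library, where 2.47% of all genes in the files had none, and 1 (1.47%) with none in any knockout-labelled library, where 0.58% had none. A count of 0 allows up to 3 counts, or 0.0920 to 0.121 CPM in a parental library and 0.0730 to 0.0793 CPM in a knockout-labelled library. These limits, like the intervals above, are for counting error alone, because the methods name no molecular identifiers and PCR copies of a molecule would count as separate reads.

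**Figure D3:**
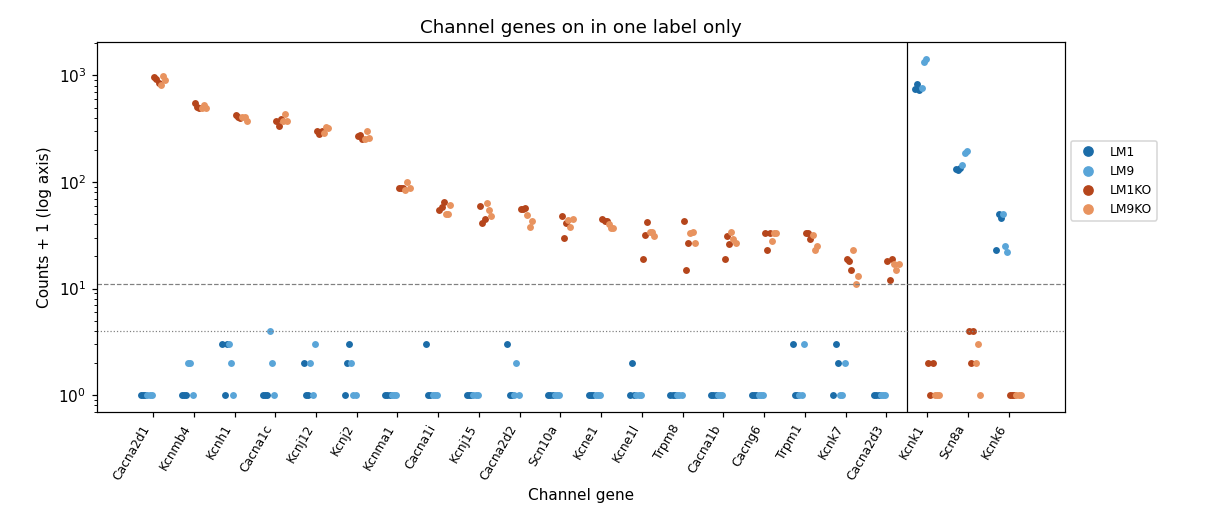
Counts plus 1 on a log axis of the 22 channel genes on in one label only, with a point for each of the 12 libraries coloured by group; the dashed line is at 10 counts and the dotted line at 3 counts. The 19 genes on the left lie on or above the dashed line in every knockout-labelled library and on or below the dotted line in every parental library, and Kcnk1, Scn8a and Kcnk6 on the right show the reverse.

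The parental lines were compared with each other last. With all libraries, 0 of 68 channel genes differed between LM1 and LM9 in limma-voom (0.0055% of all genes did), with 21 (30.9%) at an unadjusted p under 0.05, where 47.7% of all genes were. edgeR gave 0 and DESeq2 gave 9 of the 61 channel genes to which it assigned an adjusted p (14.8%), where it called 33.1% of all such genes. The LM9 libraries were not alike. Among the 56 channel genes with a read in any parental library, LM9 replicate 1 lay within the range of the LM1 libraries for 35 (62.5%), where 61.3% of all such genes did. LM9 replicates 2 and 3 both lay below LM1 and replicate 1 for 26 of the 56 (46.4%) and above them for 9 (16.1%), where 36.6% and 35.9% of all such genes did. Without LM9 replicate 1, 31 of 68 channel genes differed (45.6%), 22 higher in LM1 and 9 lower, where 65.7% of all genes did (33.4% higher and 32.4% lower). With all libraries but a filter at a mean of 1 CPM, 11 of 44 differed, where 30.4% of such genes did. This comparison rests on which LM9 libraries stand for the line, and the labels do not settle it.

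Without LM9 replicate 1, the genes with the smallest p-values between LM1 and LM9 included Kcnk1, Kcnn4, Clcn3 and Trpm7. Kcnk1 was at 26.2 CPM in LM1, 25.7 in LM9 replicate 1 and 54.9 in the mean of replicates 2 and 3. The log2 difference of LM1 minus LM9 was -1.07 (SE 0.05, adjusted p = 1.2e-11). Kcnn4 was also higher in LM9 replicates 2 and 3, at 52.1 against 21.7 CPM in LM1, with a difference of -1.26 (SE 0.07, adjusted p = 5.6e-11). Clcn3 and Trpm7 were lower there, with differences of 0.83 (SE 0.05, adjusted p = 5.2e-10) and 1.01 (SE 0.07, adjusted p = 8.8e-10). Of the 31 genes, 18 were shifted in LM9 replicates 2 and 3 towards the level of the knockout-labelled libraries and 13 away from it. The 18 are 58.1%, and 51.4% of all genes called in this comparison were shifted that way. Kcnk1 and Trpm7 are among the 13, since both moved further from the knockout-labelled level, whereas Kcnn4, Cacna1g and Trpm4 are among the 18.

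**Figure D4:**
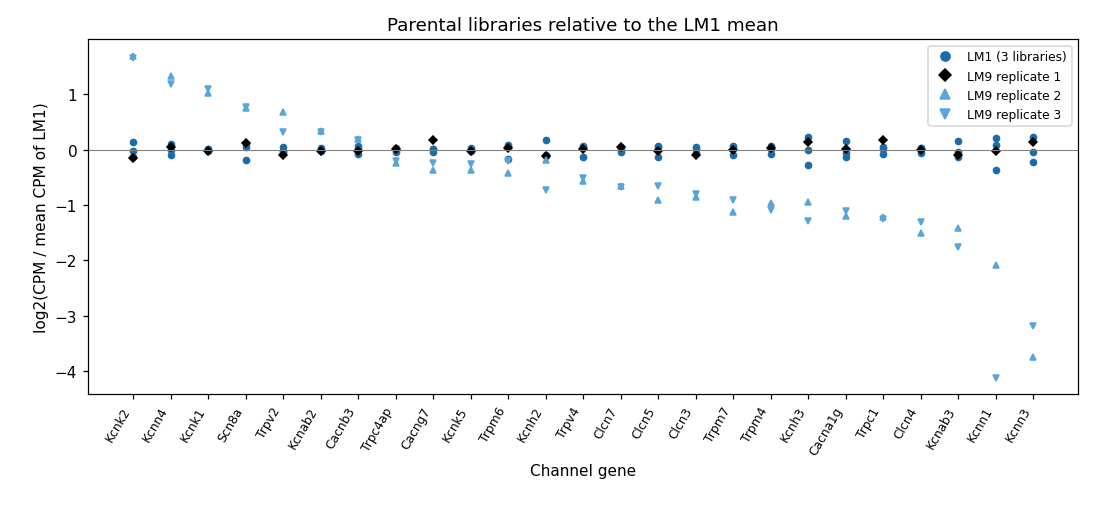
log2 of CPM over the mean CPM of LM1 for 25 of the 29 channel genes that differed between LM1 and LM9 without LM9 replicate 1 and had at least 1 CPM in LM1, with points for the 3 LM1 libraries and each LM9 library. LM9 replicate 1 (diamonds) sits with the LM1 points, and LM9 replicates 2 and 3 (triangles) sit together above them for Kcnk2, Kcnn4 and Kcnk1 and below them for Kcnn1 and Kcnn3.

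The size of the change from parental to knockout-labelled libraries depended on that library as well. Without LM9 replicate 1, 26 of 68 channel genes (38.2%) had a different change in LM1 than in LM9, where 57.2% of all genes did. The change was more positive in LM1 for 8 and more negative for 18, against 27.6% and 29.6% of all genes. The interaction was -1.40 (SE 0.11, adjusted p = 1.5e-08) for Clcn4, -1.08 (SE 0.08, adjusted p = 7.5e-09) for Trpm7, -0.85 (SE 0.07, adjusted p = 2.2e-08) for Clcn3 and 1.32 (SE 0.08, adjusted p = 7.0e-10) for Kcnn4. The knockout-labelled groups themselves lay close together for these genes, for example 92 ± 2.30 and 88.7 ± 3.64 CPM for Kcnn4. The values of LM9KO against LM9 without replicate 1 kept their sign for every gene that passed with all libraries. In that fit 62 channel genes passed in LM9, where 88.9% of all genes did, with Kcnn3 and Trpc2 lost, and 66 passed in LM1, where 88.6% did.

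Other genes of ion transport were counted in 4 lists of gene names grouped by function. The background is as above, 81.2% of all genes passing in LM1 (43.1% higher and 38.1% lower) and 82.3% in LM9 (44.3% higher and 38% lower), and each list's counts are to be read beside it. Of 19 other cation channel genes tested, 10 were higher and 7 lower in LM1KO than LM1, and 11 higher and 4 lower in LM9KO than LM9. Examples are the proton channel gene Hvcn1, which rose from 0.379 to 151 CPM in LM1 and from 0.158 to 149 in LM9, and Hcn3 and Asic1, which fell by 5.30 and 4.30 on the log2 scale in LM1. Of 17 anion channel genes outside the CLC family, 11 were higher and 4 lower in LM1KO, and 12 and 4 in LM9KO. The chloride intracellular channel genes Clic5 and Clic6 had at most 1 count in parental libraries and were at 26.1 and 11.8 CPM in LM1KO. Ano9, of the anoctamin family, was at 5.79 CPM in LM1 and had 0 counts in all knockout-labelled libraries.

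Calcium stores and pumps moved both ways. Of 15 genes of calcium stores and extrusion, 8 were higher and 6 lower in LM1KO, and 9 and 5 in LM9KO. The calcium pump gene Atp2a3 went from at most 2 counts to 41 CPM in LM1KO, the inositol trisphosphate receptor gene Itpr2 fell from 108 to 12.4 CPM, and the ryanodine receptor gene Ryr1 was low in both. Of 19 genes of the sodium-potassium pump and of cation-chloride cotransport, 9 were higher and 10 lower in LM1KO, and 9 and 8 in LM9KO. The pump regulators Fxyd6 and Fxyd2 had at most 2 and 5 parental counts and were at 47.1 and 41.4 CPM in LM1KO. The median log2 fold change in LM1 was 0.61 for the other cation channels and 0.58 for the anion channels. It was 0.90 for calcium stores and extrusion and -0.30 for the pump and cotransporters. The channel genes had a median of 1.76 and all genes 0.08. Among the 44 channel genes with a mean of at least 1 CPM it was 0.49, against 0.05 for all such genes. The list medians were not restricted to that level, so the lists and the channel genes cannot be ranked by these medians.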

How the data were processed

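RNA-seq gene counts from 12 tumoursphere libraries (4 groups of 3, from the sample titles) were used. The authors prepared stranded poly-A libraries, aligned single-end reads with STAR to mm10 and counted 5′ ends over the union of each gene's exons with qCount of QuasR; versions and the strand setting were not given in the sources used here. Each deposited file held the raw gene counts of 1 library. The handling of multi-mapping reads was not given either. Symbols, coordinates and exon lengths came from GENCODE M21 on GRCm38, the same assembly as mm10, and promoters from RefSeq (GRCm38.p6).

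limma-voom (limma 3.58.1, edgeR 4.0.16, R 4.3.3), the framework that the study names, was fitted to all 12 libraries with TMM factors, filterByExpr at its defaults (count minimum 10, total minimum 15) and 1 mean per group. Tests were two-sided, with Benjamini-Hochberg adjustment over all 18176 genes tested in each contrast and a threshold of 0.05. DESeq2 1.42.0 and edgeR's quasi-likelihood test were alternatives. CPM values are TMM-scaled, and CPM per kb divides them by exonic length. A fold against a group with no count is a lower bound at 3 counts per library, and other ratios carry an exact 95% interval for counting error. With 3 libraries against 3, an exact permutation test cannot give a p-value under 0.1, so none is printed. Library totals of 29249075 to 37162594 counts set the floor of 3 counts at 0.0730 to 0.121 CPM.

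Members, classes and lists were chosen with earlier results of these data known. The genes named were those on in one label only, the highest and the most changed of each class, those with the smallest p-values between the lines and those nearest to the on and off limits, with other members named for completeness; some genes are not reported here. The fits were tested on simulated data. The alternatives were the other tests, median-ratio factors, library totals only, dropping the count filter or setting it at a mean of 1 CPM, a replicate block, fits restricted to the groups compared, a fold threshold of 1 on the log2 scale, and omission of each library in turn. All 12 libraries were used.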

Additional observations from a re-analysis of the deposited data

How the results depend on the processing

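The calls in LM1KO against LM1 ranged from 64 to 66 and those in LM9KO against LM9 from 61 to 64 when 1 library was left out, and from 61 to 66 and 57 to 64 under the other tests, scalings, samples and size threshold. With a mean of at least 1 CPM, fewer genes were tested and 43 and 40 passed. LM1 against LM9 gave 0 calls with all libraries, 9 in DESeq2, 15 with library totals only, 11 with a mean of at least 1 CPM, and 0 to 31 when 1 library was left out. The interaction gave 0 calls under every alternative but the leaving out of LM9 replicate 1 (0 to 26). Leaving out 1 library gave 19 to 20 genes on in the knockout-labelled libraries only and 3 to 4 in the parental libraries only. With 30 counts for on there were 11 of the former, with 0 counts for off 9 of the former and 1 of the latter, and with a mean of at least 1 CPM against under 0.1 CPM 5 of the latter. Of the named genes' values, 1890 kept their direction and side of the threshold, 8 no longer passed and 1 newly passed. Clcn3 in LM9, which did not pass, changed sign with library totals only (0.11) and ranged from -0.39 to 0.0071 when 1 library was left out, with LM9 replicate 1 giving the positive value; the cause was not tested. The median of all genes was 0.08, 0.11 and 0.31 in LM1 and 0.13, 0.13 and 0.49 in LM9 with TMM, median-ratio factors and library totals only. Equal replicate numbers did not pair the libraries, since the correlations of their deviations lay between -0.09 and 0.04; with the replicate block 66 and 63 channel genes passed in LM1 and LM9. Genes with fewer than 60 counts in their higher label are the least precisely measured.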
